A study of Mus musculus with 8 samples.

Results

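The 10 genes described here build the MHC class I antigen presentation pathway: the heavy chains H2-K1 and H2-D1, the light chain B2m, the peptide transporter subunits Tap1 and Tap2, the loading factor Tapbp, the immunoproteasome subunits Psmb8, Psmb9 and Psmb10, and the transactivator Nlrc5. They were chosen by name and matched by symbol to the 53715 gene identifiers of the count files, where all 10 were found and all 10 passed the filter on low counts that left 13992 genes for testing. RNA came from bone marrow haematopoietic stem cells, sorted by surface markers as LSK CD48- CD150+, of mice 8 to 12 weeks old, each given 6 doses of pIpC, a double-stranded RNA mimic that induces interferon. 4 libraries came from mice labelled Gata2; Mx1-Cre heterozygotes and 4 from wild-type mice, 1 library per mouse. Mx1-Cre is a recombinase transgene driven by an interferon-inducible promoter, and it acts in blood cells and in other tissues that respond to interferon. The labels name it for the heterozygotes alone, so an effect of the transgene and one of the Gata2 allele cannot be told apart. The comparison asked how the heterozygous Gata2 genotype bears on stem cell transcripts, and every animal had been exposed to pIpC, so no untreated level of these interferon-responsive genes was available.

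MHC class I molecules display short peptides from inside a cell to T cells and natural killer cells. Proteasomes cut cytosolic proteins, and in cells exposed to interferon the catalytic subunits encoded by Psmb8, Psmb9 and Psmb10 replace those encoded by Psmb5, Psmb6 and Psmb7. TAP1 and TAP2 together pump the peptides into the endoplasmic reticulum, where tapasin, the product of Tapbp, holds an empty heavy chain paired with beta-2-microglobulin at the transporter until a peptide fits. NLRC5 is drawn to the promoters of class I genes by factors bound to short conserved elements, among them the X2 and Y boxes.

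The promoters of the heavy chains, the light chain and a transporter subunit are shown because genes with similar or shared promoters differed in how much they varied between mice. The windows are 300 bases long, from 250 before to 50 after the start, and come from RefSeq on GRCm38.p6, which held 8 of the 10 genes (Tap2 and Nlrc5 had no entry). Only exact matches to a motif were sought, on both strands, and capitals mark the motifs found. These were the X2 box core TGACGC, the Y box CCAAT, the TATA box TATAAA, the gamma-activated site TTCNNNGAA, the core of the interferon-stimulated response element and a kappaB sequence. A further kappaB sequence, named here for class I genes, was added after the promoters had been read. Its letters are the first capitals of the H2-K1 and H2-D1 windows. Those of the other kappaB sequence are the third capitals of the B2m window, read on the other strand. The second capitals of the B2m window matched the response element core, and the search allowed any base in place of their middle C and T.
H2-K1 has 2 RefSeq starts, of which the more downstream is shown. Its window is chr17:34000284-34000583 on the minus strand, that of H2-D1 chr17:35262844-35263143 on the plus strand, that of B2m chr2:122147437-122147736 on the plus strand and that of Tap1 chr17:34187306-34187605 on the plus strand.
H2-K1: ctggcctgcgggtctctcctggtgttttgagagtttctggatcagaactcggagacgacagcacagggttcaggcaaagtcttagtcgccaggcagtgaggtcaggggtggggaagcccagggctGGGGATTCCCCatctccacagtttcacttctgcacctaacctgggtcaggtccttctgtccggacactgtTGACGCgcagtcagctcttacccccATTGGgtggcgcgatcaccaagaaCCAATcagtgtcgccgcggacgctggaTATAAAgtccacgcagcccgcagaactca
H2-D1: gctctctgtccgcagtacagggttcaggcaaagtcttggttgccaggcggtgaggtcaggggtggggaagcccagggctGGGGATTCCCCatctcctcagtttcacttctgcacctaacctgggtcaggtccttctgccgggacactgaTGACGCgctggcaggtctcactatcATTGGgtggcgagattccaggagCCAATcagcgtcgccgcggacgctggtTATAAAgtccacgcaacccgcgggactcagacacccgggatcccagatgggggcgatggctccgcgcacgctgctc
B2m: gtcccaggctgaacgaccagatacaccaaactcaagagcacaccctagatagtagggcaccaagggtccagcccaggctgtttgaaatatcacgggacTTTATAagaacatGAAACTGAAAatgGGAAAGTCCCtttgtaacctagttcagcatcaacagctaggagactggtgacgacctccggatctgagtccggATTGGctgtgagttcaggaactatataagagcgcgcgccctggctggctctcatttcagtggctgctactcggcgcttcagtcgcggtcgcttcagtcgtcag
Tap1: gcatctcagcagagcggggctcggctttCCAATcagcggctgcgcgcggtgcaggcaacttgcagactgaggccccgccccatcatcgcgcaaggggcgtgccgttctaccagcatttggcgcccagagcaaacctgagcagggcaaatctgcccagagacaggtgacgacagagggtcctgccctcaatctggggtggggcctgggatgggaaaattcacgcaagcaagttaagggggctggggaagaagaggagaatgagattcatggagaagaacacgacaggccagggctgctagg

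The H2-K1 and H2-D1 windows matched at 225 of 253 aligned bases (88.9%, gaps left out) and held the same marked elements in the same order. In both, 19 bases lay between the X2 box core and the first Y box, and 22 bases between the second Y box and the TATA box. Between the Y boxes lay 19 bases in H2-K1 and 18 in H2-D1. Relative to the annotated start the elements lay differently, with the TATA box at position 22 in H2-K1 and -26 in H2-D1. The class I kappaB sequence occurred in both and in 0.0304% of the 32851 promoters of this length, the X2 box core in 7.4%, the Y box in 37.4% and the TATA box in 13.6%. Of the 8 genes with a window, H2-K1 and H2-D1 alone held the exact X2 box core TGACGC, and 6 held a Y box. A variant such as tgacga, present in the B2m and Tap1 windows, was not counted, so the other genes may still hold an X2 box. The B2m window held the interferon-stimulated response element core, present in 3.44% of promoters, next to the other kappaB sequence, present in 0.155%. The H2-K1 and H2-D1 windows had no exact match to that core, which does not show that they lack such an element. The TATA box match of B2m lay on the other strand, at position -152. Tap1 and Psmb9 are read in opposite directions from a common region, and their windows shared 275 bases. In this window Tap1 showed a Y box and none of the other motifs. A TTCNNNGAA match, found in 8.3% of promoters, was present in the Psmb8 window.

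Transcript levels of the pathway spanned several orders of magnitude, and not all were abundant. Compared per length, as FPKM (fragments per kilobase of exon, scaled to library size), B2m stood at 6407 ± 627 in heterozygote-labelled and 6106 ± 596 in wild-type libraries (SD, n = 4 each) and ranked 2 among the 13992 genes tested. H2-K1 followed at 369 ± 30.2 FPKM in heterozygote-labelled and 377 ± 20.5 FPKM in wild-type libraries. H2-D1 averaged 277 ± 48.4 FPKM in heterozygote-labelled and 430 ± 150 FPKM in wild-type libraries, and Psmb8 323 ± 19.1 FPKM in heterozygote-labelled and 319 ± 46.2 FPKM in wild-type libraries. These 3 genes overlapped in range over the 8 libraries, so their order was not resolved. Psmb10 averaged 130 FPKM over all libraries, below every Psmb8 value, and lay above Psmb9 in each library. That order depends on the exon lengths, 1705 bases for Psmb10 and 3659 for Psmb9. In CPM, not divided by length, Psmb9 exceeded Psmb10 in heterozygote-labelled replicates 2 and 3 and in wild-type replicate 3. Psmb9 and Tapbp, at 60.1 and 56.8 FPKM, overlapped. Tap1 and Tap2 were far lower, at 9.27 and 6.49 FPKM, and overlapped as well, although Tap1 exceeded Tap2 in 7 of 8 libraries. Nlrc5, which encodes the transactivator, was the least abundant at 0.893 FPKM. Among the 13992 genes tested Tap1 ranked 4657, Tap2 5545 and Nlrc5 10993. All 10 genes together took 0.814% to 0.956% of the fragments of a library.

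**Figure D1:**
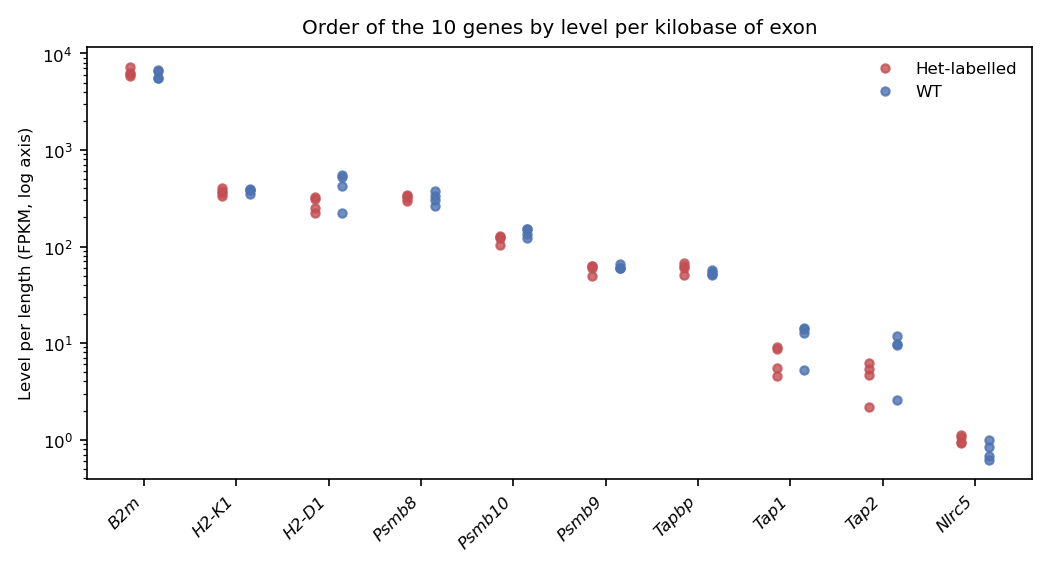
Level of each gene per kilobase of exon (FPKM, log axis) in the 4 heterozygote-labelled libraries (red, left) and the 4 wild-type libraries (blue, right), ordered by mean. B2m lies above all the others at 5574 to 7298 FPKM and Nlrc5 below them at 0.617 to 1.1 FPKM, and the points of H2-D1, Tap1 and Tap2 are the most spread.

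None of the 10 genes passed the threshold, an adjusted p of 0.05 by edgeR over all genes tested. Nor did any other gene, the smallest adjusted p being 0.834, so the background of calls was 0%. At an unadjusted p under 0.05 edgeR had 1 of the 10, H2-D1, which was lower in the heterozygote-labelled libraries. Across all genes 5.66% reached that level, 3.29% lower and 2.37% higher. DESeq2 called 29 genes (0.208%), none of them among the 10, with 7.41% at an unadjusted p under 0.05, and limma voom called 0% with 10.1% at an unadjusted p under 0.05. At that unadjusted level each of these tools had 2 of the 10, H2-D1 and Tap1. Their adjusted p was 0.387 and 0.593 by DESeq2, and 0.451 and 0.454 by limma voom. 4 of the 10 log2 fold changes were positive and 6 negative, with a median of -0.05, against 48% positive, 52% negative and a median of -0.02 over all genes tested. The heterozygote-labelled and wild-type libraries overlapped in every one of the 10 genes, while 1.65% of the genes tested were separated with the heterozygote label higher and 1.82% with it lower. In bulk RNA, fewer cells of a type and less RNA per cell cannot be told apart, and nothing in the labels says that any pair of mice shared a litter.

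**Figure D2:**
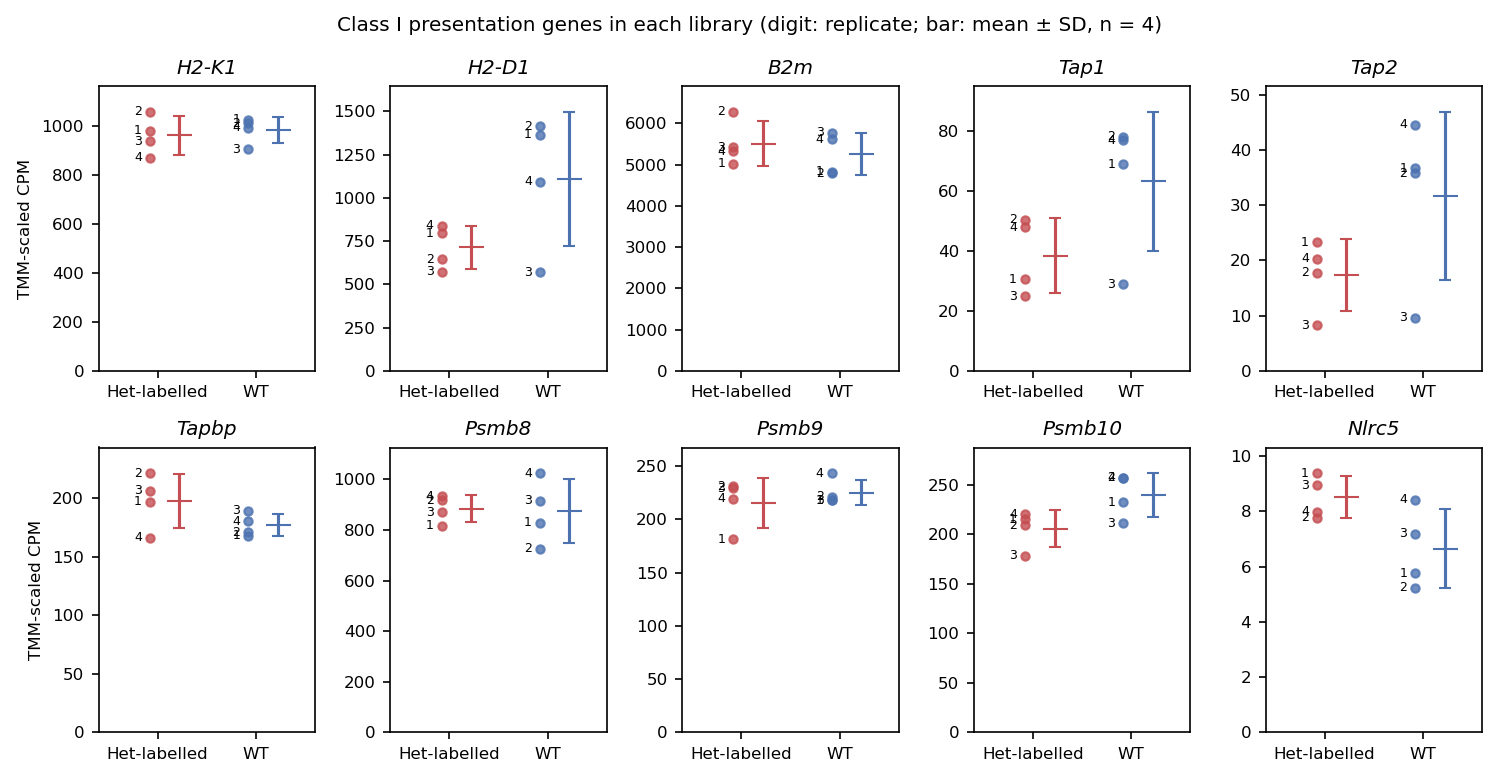
Counts scaled to TMM library size (TMM-scaled CPM) of the 10 genes in each library, heterozygote-labelled (red, left) and wild type (blue, right), with the replicate number beside each point and the mean ± SD of 4 libraries. Wild-type replicate 3 lies with or below the heterozygote-labelled libraries in H2-D1, Tap1 and Tap2, whose other 3 wild-type libraries lie above all heterozygote-labelled ones.

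The 2 classical heavy chain genes, with the similar promoters shown above, differed in their spread. H2-K1 (ENSMUSG00000061232.15, chr17:33996017-34000333, minus strand) measured 982, 1058, 938 and 870 CPM in heterozygote-labelled replicates 1 to 4 and 1026, 1011, 906 and 994 CPM in wild-type replicates 1 to 4. The lowest and highest library differed by 1.22-fold, and the groups overlapped throughout. The log2 fold change was -0.03 (SE 0.09, edgeR adjusted p = 0.962), and the 95% interval of the fold was 0.848 to 1.13. The sign turned, to 0.14, once each library had been corrected for its dependence on transcript GC content and length. H2-D1 (ENSMUSG00000073411.11, chr17:35262730-35267499, plus strand) measured 797, 646, 573 and 839 CPM in the heterozygote-labelled replicates, against 1365, 1413, 570 and 1092 CPM in the wild-type replicates. 3 wild-type libraries lay above every heterozygote-labelled one, and wild-type replicate 3 was the lowest of all 8. Its log2 fold change was -0.64 (SE 0.26, unadjusted p = 0.0326, adjusted p = 0.85 by edgeR), and DESeq2 gave an adjusted p of 0.387. Without wild-type replicate 3 the log2 fold change was -0.85 (SE 0.15, edgeR adjusted p = 0.159), and without wild-type replicate 2 it was -0.49 (SE 0.27). Heavy chain genes are close paralogs, and 3.1% of the 75-base windows of H2-K1 transcripts and 5.4% of those of H2-D1 recurred in other genes, and fragments from such stretches can be lost from the counts.

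As a share of both heavy chains, per length, H2-D1 made up 45.1%, 38.2%, 38.2% and 49.4% in the heterozygote-labelled replicates and 57.4%, 58.6%, 38.9% and 52.6% in the wild-type replicates. Its mean was 42.7% ± 5.49 in heterozygote-labelled and 51.9% ± 9.02 in wild-type libraries (SD, n = 4 each). An exact two-sided permutation test over 70 assignments gave p = 0.114 (adjusted p = 0.286 over 4 shares), where 0.0286 is the smallest value possible. Of the 4 wild-type libraries, replicate 3 alone had more H2-K1 than H2-D1 per length, as all 4 heterozygote-labelled libraries had.

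B2m, the light chain shared by class I molecules, spanned 1.31-fold between its lowest and highest library. It gave 5017, 6277, 5425 and 5322 CPM in heterozygote-labelled libraries, against 4829, 4793, 5767 and 5617 CPM in wild-type libraries. The 2 lowest values were wild type and the highest was heterozygote-labelled replicate 2. The gene (ENSMUSG00000060802.8, chr2:122147686-122153083, plus strand) had a log2 fold change of 0.07 (SE 0.10, edgeR adjusted p = 0.934), with a 95% interval of 0.893 to 1.23 on the fold scale. B2m is the one gene of the 10 with a GC content (41.2%) below the median of the genes tested, 49%, and its sign turned to -0.14 after the GC and length correction.

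Both subunits of the peptide transporter had lower means under the heterozygote label, with a wide spread between mice. Tap1 measured 30.5, 50.3, 24.9 and 47.9 CPM in the heterozygote-labelled replicates, against 68.8, 78, 28.9 and 76.8 CPM in the wild-type replicates. Tap2 measured 23.3, 17.8, 8.29 and 20.3 CPM in the heterozygote-labelled replicates, against 36.7, 35.8, 9.62 and 44.6 CPM in the wild-type ones. In both genes replicate 3 was the lowest of its genotype, and the other 3 wild-type libraries lay above all 4 heterozygote-labelled ones. Log2 fold changes were -0.72 (SE 0.34) for Tap1 and -0.86 (SE 0.46) for Tap2, each with an edgeR adjusted p of 0.85, and the intervals of the fold change, 0.36 to 1.03 and 0.27 to 1.12, held both a halving and no change. Without wild-type replicate 3 the values were -0.96 (SE 0.26, edgeR adjusted p = 0.197) and -1.16 (SE 0.33, edgeR adjusted p = 0.212). Without heterozygote-labelled replicate 3 they were -0.56 (SE 0.35) and -0.63 (SE 0.46). Tap2 differed 5.38-fold between its lowest and highest library and Tap1 3.13-fold.

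Tapbp, encoding tapasin, had a higher mean under the heterozygote label. It measured 197, 221, 206 and 166 CPM in heterozygote-labelled libraries, against 168, 171, 189 and 180 CPM in wild-type libraries. 3 of the heterozygote-labelled values lay above every wild-type value, and the remaining one, replicate 4, lay below them all. The log2 fold change was 0.16 (SE 0.11, edgeR adjusted p = 0.858), and 61 of its 3296 exon bases overlap Zbtb22 on the same strand, where fragments were not counted.

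The immunoproteasome subunits varied little between libraries, at most 1.44-fold between the lowest and the highest. Psmb8, the chymotrypsin-like subunit beta5i, measured 817, 917, 869 and 933 CPM in the heterozygote-labelled replicates, against 828, 726, 915 and 1023 CPM in the wild-type replicates, which enclosed them. Psmb9, beta1i, measured 181, 231, 229 and 219 CPM in heterozygote-labelled libraries, against 218, 221, 218 and 243 CPM in wild-type libraries. Heterozygote-labelled replicate 1 stood below the other 7. Psmb10, beta2i, measured 215, 209, 178 and 220 CPM under the heterozygote label, against 232, 257, 211 and 257 CPM in wild type. Here 3 wild-type libraries again lay above all heterozygote-labelled ones and replicate 3 was the lowest of each genotype. Log2 fold changes were 0.02 (SE 0.12) for Psmb8, -0.07 (SE 0.11) for Psmb9 and -0.22 (SE 0.11) for Psmb10, with edgeR adjusted p values of 0.986, 0.937 and 0.85. Their 95% intervals on the fold scale were 0.847 to 1.21, 0.808 to 1.13 and 0.724 to 1.02, so a halving lay outside each.

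Psmb9, Tap1, Psmb8 and Tap2 lie in that order within 34.3 kilobases of chromosome 17 (chr17:34181988-34216321), and the proteasome and transporter genes interleaved there had different spreads. Between the lowest and the highest library Psmb9 differed 1.35-fold and Psmb8 1.41-fold, against the larger spans of Tap1 and Tap2 given above. The ratio of Tap1 to Psmb9 per length was 0.113, 0.146, 0.0727 and 0.146 in the heterozygote-labelled replicates and 0.211, 0.235, 0.0883 and 0.211 in the wild-type replicates. This ratio was chosen after the values were seen, and in both genotypes it was lowest in replicate 3. The 2 genes overlap by 212 exon bases on opposite strands, which strand-specific counting keeps apart.

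Immunoproteasome transcripts predominated over their constitutive counterparts for 2 of the 3 catalytic sites, in every library. Psmb8 made up 74.8%, 80.3%, 73.8% and 76.4% of Psmb8 plus Psmb5 per length in heterozygote-labelled libraries and 73%, 71.7%, 75.8% and 76.2% in wild-type libraries. For Psmb10 against Psmb7 the share was 77.3%, 72.4%, 70.7% and 75.3% in heterozygote-labelled and 77%, 82.7%, 71.8% and 76.6% in wild-type libraries. Psmb9 was the minor partner of Psmb6, at 7.56%, 8.95%, 8.78% and 8.88% in heterozygote-labelled libraries and 10.7%, 12.2%, 7.19% and 9.76% in wild-type libraries. Differences of the means (heterozygote label minus wild type) were 2.19, -3.07 and -1.41 percentage points for Psmb8, Psmb10 and Psmb9, and exact two-sided permutation tests gave p = 0.286, 0.286 and 0.229 (0.286 each after adjustment over the 4 shares). Single libraries moved these differences. They ran over 0.866 (without heterozygote-labelled replicate 2) to 3.03 (without heterozygote-labelled replicate 3) for Psmb8, -4.82 (without wild-type replicate 3) to -1.19 (without wild-type replicate 2) for Psmb10, and -2.33 (without wild-type replicate 3) to -0.668 (without wild-type replicate 2) for Psmb9. With counts not divided by length, the differences were 1.03 for Psmb8, -4.06 for Psmb10 and -2.28 percentage points for Psmb9. The size of a share depends on the exon lengths. In CPM, Psmb10 averaged 206 in heterozygote-labelled and 239 in wild-type libraries, against 145 and 143 for Psmb7. Fragments of Psmb5 can be lost, since 36.8% of the 75-base windows of its transcripts recur in Gm3375 or Mir686 and 109 of its 899 exon bases overlap Mir686, which would raise the Psmb8 share in all libraries.

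**Figure D3:**
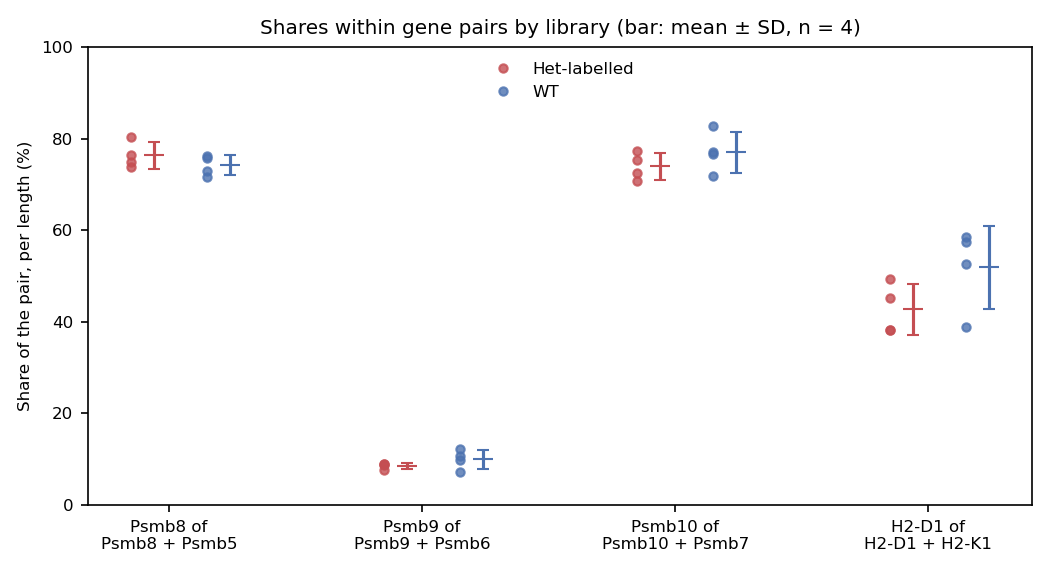
Share of the first gene in each pair, in percent of the summed level per length, for heterozygote-labelled (red, left) and wild-type libraries (blue, right), with points for libraries and bars for the mean ± SD of 4. Psmb8 and Psmb10 lie between 70.7% and 82.7% in all libraries, Psmb9 between 7.19% and 12.2%, and the H2-D1 share of wild-type replicate 3 (38.9%) lies among the heterozygote-labelled ones.

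Nlrc5 (ENSMUSG00000074151.13, chr8:94434356-94527272, plus strand) was the member with the highest fold change. It measured 9.37, 7.77, 8.94 and 7.98 CPM in heterozygote-labelled libraries, against 5.75, 5.24, 7.18 and 8.41 CPM in wild-type libraries, resting on 108 to 191 fragments per library. 2 heterozygote-labelled values lay above all wild-type ones, and wild-type replicate 4 lay above the other 2. The log2 fold change of 0.36 (SE 0.29, edgeR adjusted p = 0.871) had a 95% interval of the fold from 0.816 to 2.01.

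**Figure D4:**
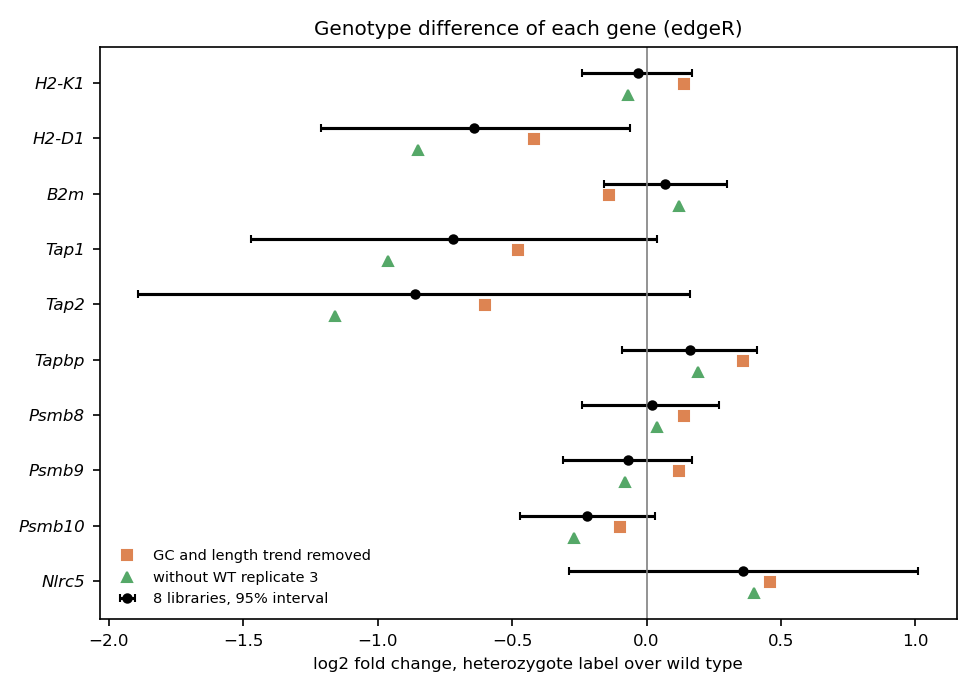
Log2 fold change of each gene, heterozygote label over wild type, from edgeR with its 95% interval (black), corrected for GC content and length (orange squares) and without wild-type replicate 3 (green triangles). H2-D1, Tap1 and Tap2 are negative in all 3 treatments, at -0.42 to -1.16, while H2-K1, B2m and Psmb9 change sign with the correction. Wild-type replicate 3 is the lowest wild-type library of H2-D1, Tap1 and Tap2, so leaving it out is no independent check of their sign.

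H2-D1, Tap1, Tap2 and Psmb10 had the most alike profiles among the 10 genes across the 8 mice, a grouping seen in the values. With each gene's log2 CPM centred and scaled to unit SD over the 8 libraries, root mean square distances were 0.398 between H2-D1 and Tap2, 0.44 between Tap1 and Tap2, 0.488 between H2-D1 and Tap1, and 0.429 between Tap2 and Psmb10. The closest pair without any of these 4 genes was B2m with Psmb8, at 0.7. H2-D1, Tap1 and Tap2 had an SD of log2 CPM of 0.53, 0.66 and 0.89, above the median of 0.37 over the 9442 genes tested averaging 5 CPM or more, and the remaining 7 genes were below that median, H2-K1 lowest at 0.10. Wild-type replicate 3 and heterozygote-labelled replicate 3 deviated furthest down in Tap2, by -1.13 and -1.34 on the log2 scale, and wild-type replicate 4 furthest up, by 1.07. The mean profile of all 10 genes described none of them well, with distances of 0.709 to 1.35. Among 9432 genes outside the 10 with a mean of at least 5 CPM, the 5 nearest to that profile were A630072M18Rik, Pole3, Taf5l, Ago4 and Med27, at distances of 0.303 to 0.397 over 8 libraries. With so many candidates and 8 libraries such nearness can arise by chance, and no link to the pathway was tested.

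**Figure D5:**
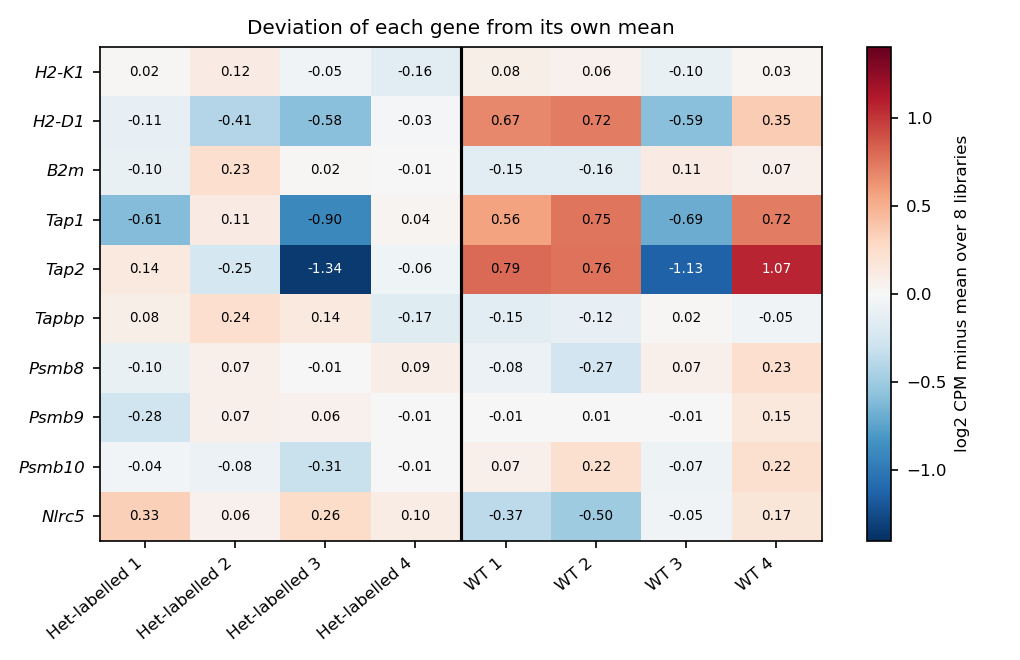
Log2 CPM of each gene minus its own mean over the 8 libraries, heterozygote-labelled libraries on the left and wild-type libraries on the right of the black line. The rows of H2-D1, Tap1 and Tap2 hold the largest values, down to -1.34 in heterozygote-labelled replicate 3 and up to 1.07 in wild-type replicate 4, and the H2-K1 row stays within -0.16 and 0.12.

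Libraries also differed in how transcript levels depended on GC content. Over 13981 tested genes, the correlation of a library's deviation from the mean with GC content was -0.0342, -0.0873, -0.0988 and -0.0366 in heterozygote-labelled replicates 1 to 4 and 0.18, 0.232, -0.162 and 0.0402 in wild-type replicates 1 to 4. Wild-type replicate 3, low in H2-D1, Tap1 and Tap2, had the most negative value. The GC content of these transcripts was 55.9%, 55.8% and 56.9%. After the correction, log2 fold changes were -0.42 (SE 0.19) for H2-D1, -0.48 (SE 0.29) for Tap1 and -0.60 (SE 0.40) for Tap2, each with an edgeR adjusted p of 0.916 to 0.921. The part of GC content in the uncorrected differences beyond these values was not tested.

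Other genes of the pathway likewise gave no call, and their directions were mixed. Of 27 further class I heavy chain and class I-like genes, 23 were in the files, 3 of those had 0 counts in all libraries, and 15 were tested, with 8 log2 fold changes positive, 7 negative and a median of 0.01. H2-Q7, a heavy chain gene of the Qa region, measured 125, 138, 133 and 126 CPM in heterozygote-labelled libraries, against 115, 110, 111 and 115 CPM in wild-type libraries, and was the one gene of the 15 whose groups did not overlap, where 1.65% of all genes tested were separated in that direction. Its log2 fold change of 0.22 (SE 0.10, edgeR adjusted p = 0.85) rests on counts that leave out shared stretches, as 17% of its 75-base windows recur in other genes, and what that does to the difference was not tested. Cd1d1, which presents lipids to natural killer T cells, differed by 0.33 (SE 0.14). The most abundant of these genes per length, H2-M3 and H2-T22, differed by 0.0085 (SE 0.18) and -0.14 (SE 0.10).

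Among 13 peptide-loading and peptide-trimming genes, 4 were positive and 9 negative, with a median of -0.04. Lnpep, an endosomal aminopeptidase of cross-presentation, measured 19.8, 20.9, 16 and 23.3 CPM in heterozygote-labelled libraries, against 13.3, 9.47, 12.2 and 12 CPM in wild-type libraries. It was the one gene of the 13 whose groups did not overlap, where 1.65% of all genes tested were separated in that direction. The log2 fold change of Lnpep was 0.77 (SE 0.23, unadjusted p = 0.0076, edgeR adjusted p = 0.85). Canx, the chaperone calnexin that folds new heavy chains, measured 4486, 5541, 6244 and 4725 CPM in heterozygote-labelled libraries, against 2812, 2722, 5847 and 4183 CPM in wild-type libraries. Replicate 3, the lowest for Tap1 in each genotype, was the highest for Canx, whose log2 fold change was 0.43 (SE 0.24), and 0.70 (SE 0.18, edgeR adjusted p = 0.189) without wild-type replicate 3. Pdia3, the thiol oxidoreductase of the loading complex, differed by -0.06 (SE 0.10). The 8 constitutive catalytic, activator and assembly genes split 4 and 4 with a median of -0.02. Psme2, a subunit of the interferon-inducible activator PA28, differed by 0.18 (SE 0.15), Psme3, of a nuclear activator, by -0.35 (SE 0.24), the assembly factor gene Pomp by 0.20 (SE 0.15) and Psmb6 by 0.11 (SE 0.16). Without wild-type replicate 3 these were 0.27 for Psme2, -0.53 for Psme3, 0.35 for Pomp and 0.28 for Psmb6, and without wild-type replicate 2 they were 0.10, -0.14, 0.12 and 0.01.

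Of 23 genes for regulators of class I transcription, 8 were positive and 15 negative, with a median of -0.05. Irf1, an interferon-responsive activator of class I and transporter genes, measured 26.7, 18.3, 21.4 and 24 CPM in heterozygote-labelled libraries, against 31.9, 43.2, 29 and 32.1 CPM in wild-type libraries. Wild-type replicate 3 was the lowest of its genotype. Irf1 was the one gene of the 23 whose groups did not overlap, where 1.82% of all genes tested were separated in that direction. Its log2 fold change was -0.59 (SE 0.21, unadjusted p = 0.0177, edgeR adjusted p = 0.85), and DESeq2 gave an unadjusted p of 0.00953. Irf9, the DNA-binding subunit of the type I interferon response complex, differed by 0.08 (SE 0.15), and Eed, of the repressive complex PRC2, by 0.10 (SE 0.15). Of 28 interferon-stimulated genes, 25 were tested, with 18 positive, 7 negative and a median of 0.13. Over all genes tested 48% were positive, with a median of -0.02. Rtp4, encoding receptor transporter protein 4, differed by 0.51 (SE 0.16) and Ifi44 by 0.45 (SE 0.19). Ifi27 differed by 0.17 (SE 0.12) and the GTPase gene Igtp by 0.02 (SE 0.11). None of the list passed by edgeR or DESeq2. Bst2, encoding the antiviral protein tetherin, was the one gene of this list without overlap, at 95.3 to 96.8 CPM in heterozygote-labelled and 73.8 to 93.8 CPM in wild-type libraries, against 1.65% of all genes tested that were separated in that direction, and it is named after its values were seen.

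MHC class II transcripts, typical of antigen-presenting cells, were also present. Cd74, the invariant chain, measured 704, 1264, 676 and 707 CPM in heterozygote-labelled libraries, against 529, 617, 802 and 893 CPM in wild-type libraries, and H2-Ab1 averaged 506 ± 79.8 CPM in heterozygote-labelled and 448 ± 117 CPM in wild-type libraries (SD, n = 4 each). Of 10 class II genes tested, 6 were positive and 4 negative, with a median of 0.03. Ciita, the class II relative of NLRC5, measured 5.91, 13, 5.35 and 3.22 CPM in heterozygote-labelled libraries, against 4.3, 2.14, 1.15 and 2.11 CPM in wild-type libraries, a 2.82-fold difference (95% interval 1.18 to 6.76, edgeR adjusted p = 0.85) at a low level. Heterozygote-labelled replicate 2 was the highest for Ciita, and without it the log2 fold change was 0.99, against 1.93 without wild-type replicate 1. H2-Ob, a modulator of class II loading, differed by -0.25 (SE 0.16). The 6 dendritic cell markers, with Siglech, Itgax and Cd209a at 0, summed to 2.94 to 8.67 CPM in heterozygote-labelled and 1.15 to 2.25 CPM in wild-type libraries. The most abundant of them, Zbtb46, averaged 1.92 CPM over all libraries. The 8 T and natural killer cell markers, with Cd3e, Cd3g, Cd8a, Ncr1 and Gzma at 0, summed to 0.327 to 3.12 CPM in heterozygote-labelled and 4.14 to 6.08 CPM in wild-type libraries. Klrb1c, at a mean of 3 CPM over all libraries, made up most of that sum, so both sums rest on few transcripts at a low level. The 6 erythroid markers, all detected, summed to 17.9 to 48.8 CPM in heterozygote-labelled and 26.7 to 53.5 CPM in wild-type libraries, and the 6 endothelial and stromal markers, all detected and led by Pecam1, to 20.9 to 44 CPM in heterozygote-labelled and 33.9 to 64 CPM in wild-type libraries. All 10 monocyte and granulocyte markers were detected, led by Lyz2, and summed to 367 to 495 CPM in heterozygote-labelled and 398 to 479 CPM in wild-type libraries. The part of such cells in the class I values was not tested.

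Libraries held 16750778 to 22861884 fragments assigned to genes. Gata2 itself was not lower under the heterozygote label. It measured 35.5, 61.9, 36.7 and 45.1 CPM in heterozygote-labelled libraries, against 30.1, 45.3, 29.1 and 38.5 CPM in wild-type libraries. The log2 fold change was 0.33 (SE 0.23, edgeR adjusted p = 0.858), and 0.13 without heterozygote-labelled replicate 2. After the GC and length correction it was 0.55 (SE 0.22, edgeR adjusted p = 0.916). Counts were summed over all exons of Gata2, so this does not measure the recombined part, and every direction here follows the labels. All 12 stem cell markers were detected, with summed levels of 1502 to 1696 CPM in heterozygote-labelled and 1479 to 1956 CPM in wild-type libraries, and Xist and Y-linked counts marked replicates 1 and 4 of both genotypes as female and replicates 2 and 3 as male.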

How the data were processed

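Total RNA depleted of ribosomal RNA was sequenced as strand-specific paired reads, per the labels' protocols. The deposited values are raw fragment counts per gene, made by the authors with featureCounts 1.6.2 in reverse-stranded mode on GENCODE M17 exons of GRCm38, per the file headers. Neither multi-mapping fragments nor those shared by overlapping genes enter such counts. STAR 2.5.1b is named in the submitters' processing notes, which give featureCounts as 1.5.1. No label names the mouse strain. H2 genes differ between strains, and alleles unlike the reference would be counted less well.

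Symbols and GC content came from GENCODE M21 by gene identifier (53620 matched). edgeR 4.0.16 (filterByExpr, TMM, robust quasi-likelihood test) compared the labelled genotypes over 13992 genes with Benjamini-Hochberg adjustment. The SE is the log2 fold change divided by the root of its F. Log2 CPM used a prior count of 2. DESeq2 1.42.0 and limma 3.58.1 were alternatives. Any 2 libraries differed by more than counting error, with chi-square at least 38.1 times its degrees of freedom. Intervals cover the spread between 4 mice per group. 1 of the lists of cell type markers is not reported here. Members and lists were chosen with earlier results of these data known. Of each further list, the 2 genes of smallest p and the 2 of highest level per length are named, fewer than the rule allowed, plus genes without overlap, and the Psmb5, Psmb6 and Psmb7 partners.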

Additional observations from a re-analysis of the deposited data

Results flagged for a closer look

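Chance alone sets apart about 1 group in 20 by this measure, and 3 of 74 groups of 4 libraries held a library far from the others, judged by its gap to the nearest library as a share of the whole range. Psmb9 in wild type had a gap of 0.851, with replicate 4 at 243 CPM above the other 3 at 218 to 221 CPM. The Psmb9 share of Psmb9 plus Psmb6 in heterozygote-labelled libraries had a gap of 0.878, with replicate 1 at 7.56% below 8.78% to 8.95%. Cd74 in heterozygote-labelled libraries had a gap of 0.946, with replicate 2 at 1264 CPM above 676 to 707 CPM.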

How the results depend on the processing

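No gene of the 10 passed under any of the 19 alternatives run for each, and no gene at all passed by edgeR or limma voom. DESeq2 called 29 genes in all. At an adjusted p of 0.10 edgeR called 0. Log2 fold changes of H2-D1, Tap1, Tap2 and Psmb10 stayed negative and those of Tapbp and Nlrc5 positive throughout. H2-D1 ran from -0.85 to -0.38, Tap1 from -0.96 to -0.48 and Tap2 from -1.16 to -0.53, with smallest adjusted p values of 0.159, 0.197 and 0.212, all without wild-type replicate 3. With 1 library left out at a time these genes ran from -0.85 to -0.49, -0.96 to -0.56 and -1.16 to -0.63. Removing the GC and length trend turned H2-K1 to 0.14, B2m to -0.14 and Psmb9 to 0.12, with or without the replicate block. Scaling by library size alone turned Psmb8, H2-M3 and Igtp to -0.04, and limma voom turned Igtp to -0.02. Leaving out 1 library at a time gave -0.08 to 0.01 for H2-K1, -0.05 to 0.10 for Psmb8, -0.10 to 0.02 for Psmb9, -0.08 to 0.13 for H2-M3, -0.02 to 0.18 for Eed, -0.02 to 0.14 for Irf9, -0.04 to 0.09 for Igtp and -0.03 to 0.37 for Cd74. The same gave 0.31 to 0.70 for Canx, -0.53 to -0.14 for Psme3, 0.12 to 0.35 for Pomp, 0.01 to 0.28 for Psmb6, 0.10 to 0.27 for Psme2, 0.07 to 0.37 for H2-Ab1, 0.13 to 0.47 for Gata2, and -13.5 to -6.92 percentage points for the H2-D1 share, none past the threshold. The causes were not tested. Deviations of same-numbered libraries correlated by 0.00565 to 0.0961, highest for replicate 3, and those of differently numbered ones by -0.0844 to 0.0496. The numbers were not taken as pairs in the main test, and whether they mark pairs of mice was not tested. With the replicate number as a block, the H2-D1, Tap1 and Tap2 values were -0.57 (SE 0.19), -0.68 (SE 0.19) and -0.76 (SE 0.24). Their SE without the block was 0.26, 0.34 and 0.46, while that of Nlrc5 went from 0.29 to 0.33 with it. With the block 0 genes passed, and it changed no call. Nlrc5 rests on few fragments, which limits its precision.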
